A study of Homo sapiens with 6 samples.

Results

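Collagen genes were taken as every gene whose symbol has the form COL, a number, A and a number. There were 44 among the 20020 genes of the count table, and COL12A1 is one of them. Collagens are secreted or membrane-bound proteins whose chains wind around each other in a triple helix, which requires glycine at regular steps along each chain. Fibrillar collagens form the rope-like fibres of connective tissue, network collagens such as type IV form the sheets of basement membranes, type VI forms beaded filaments, and the FACIT group, to which collagen XII belongs, sits on the surface of fibrils. In the bowel most fibrillar collagen is made by stromal fibroblasts, while epithelial cells rest on a basement membrane built around type IV collagen.

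The libraries come from HCT116, an established human colorectal carcinoma line. Of the 6 RNA-seq libraries, 3 (CAD-KO2+IR) are from cells in which CAD, the caspase-activated DNase encoded by DFFB, was targeted with 1 guide in the lentiCRISPRv2 vector, and 3 (sgVec+IR) are from cells that received the vector as control. Both groups were irradiated with 8 Gy and analysed 24 h later, so radiation itself is shared by all libraries and is not part of the comparison. The question put to the collagen genes was which of them these cells transcribe and whether their levels differ between knockout and control. The knockout is 1 stable line and nothing states that the libraries came from separate cultures, so the p-values measure only the spread between these samples, which may be technical. Total counts ran from 14032994 to 19574144 per library. Levels are given as CPM, counts scaled to the size of the library, and fold changes put CAD-KO2+IR over sgVec+IR.

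DFFB itself had 10.03, 10.1 and 12.4 CPM in the CAD-KO2+IR libraries and 21.8, 22.9 and 20.9 CPM in the sgVec+IR libraries, so that the groups did not overlap (log2 fold change -1.02, SE 0.19, adjusted p = 0.550 in edgeR). DESeq2 gave DFFB an adjusted p of 0.00187 and voom with sample weights 0.000135. Of the colorectal epithelial markers, EPCAM, KRT8, KRT18, KRT19 and CDH1 were abundant in every library. CLDN7 had 15.2 to 66.0 CPM and CDX2 5.22 to 25.6 CPM, while CDX1 was at 0 and VIL1 was at or near 0. Libraries 3 of sgVec+IR and 2 of CAD-KO2+IR stood apart. The correlation of log2 CPM across genes, which are not independent replicates, was 0.907 and 0.903 between sgVec+IR library 3 and the other two of its group, against 0.995 between those. For CAD-KO2+IR library 2 it was 0.972 and 0.978, against 0.995. Genes at 0 counts numbered 7561 in sgVec+IR library 3 and 4577 to 5232 in the other 5.

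The promoters of COL12A1, COL4A5 and COL4A6 are shown because these were the expressed collagen genes whose groups did not overlap. Each is the 250 bases before the RefSeq start site on GRCh38.p14, read 5′ to 3′ on the gene's strand, with capitals at matches to the 6 motifs searched. COL12A1 is at chr6:75206054-75206303 on the reverse strand, COL4A5 at chrX:108439588-108439837 on the forward strand and COL4A6 at chrX:108439459-108439708 on the reverse strand.
COL12A1: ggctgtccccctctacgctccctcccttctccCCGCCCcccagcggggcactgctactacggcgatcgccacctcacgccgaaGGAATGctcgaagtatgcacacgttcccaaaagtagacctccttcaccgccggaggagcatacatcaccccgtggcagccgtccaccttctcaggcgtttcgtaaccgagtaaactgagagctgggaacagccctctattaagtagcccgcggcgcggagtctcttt
COL4A5: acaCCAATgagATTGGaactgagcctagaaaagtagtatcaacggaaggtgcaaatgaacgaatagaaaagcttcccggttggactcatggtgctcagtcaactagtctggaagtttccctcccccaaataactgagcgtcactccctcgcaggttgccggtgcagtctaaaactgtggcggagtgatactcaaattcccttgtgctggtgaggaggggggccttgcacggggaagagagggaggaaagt
COL4A6: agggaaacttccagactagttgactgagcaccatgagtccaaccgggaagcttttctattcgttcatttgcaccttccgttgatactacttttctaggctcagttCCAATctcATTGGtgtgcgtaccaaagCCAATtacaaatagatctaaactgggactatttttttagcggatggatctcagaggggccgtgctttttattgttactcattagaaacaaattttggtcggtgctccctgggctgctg
The motifs were looked for on both strands, and no matches of different motifs overlapped in these 3 promoters. They were chosen after the COL12A1 promoter had been seen, and a match is a description of letters, not of a bound site. The COL12A1 window held a GC box from -218 to -213 and a TEAD match from -167 to -162, counted back from the start site. Among the 19 expressed collagen genes with a promoter in the table, COL12A1 was the 1 with the TEAD letters GGAATG, which 11.9% of all 27305 promoters hold. The GC box, GGGCGG, was present in 11 of the 19 and in 42.3% of all promoters. The CCAAT box, searched by its name, was in 5 of them and in 33.0% of all. The TATA box, searched as TATAAA, was in 4 of them and in 11.1% of all. The AP-1 letters TGANTCA were in 0 of the 19 and in 6.60% of all promoters. The E-box letters, CACGTG, were likewise in 0 of the 19 and in 6.49% of all.

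COL4A5 and COL4A6 lie head to head on chromosome X with 379 bases between their start sites, so the 2 windows share 121 bases and carry the same CCAAT and ATTGG pair, from -247 to -235 in COL4A5 and from -145 to -133 in COL4A6. COL4A6 has a further CCAAT from -118 to -114. COL4A3 and COL4A4 on chromosome 2 and COL4A1 and COL4A2 on chromosome 13 are arranged in the same way, with 418 and 126 bases between start sites.

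Of the 44 collagen genes, 23 were expressed, defined as at least 10 counts in 3 or more of the 6 libraries. This is 52.3%, against 64.7% of all genes by the same rule. Fibrillar genes contributed 6 of 11, network genes 5 of 9, beaded-filament genes 3 of 5, FACIT genes 4 of 10 and transmembrane genes 2 of 4. Single expressed genes came from the anchoring fibrils (COL7A1), the multiplexins (COL18A1, 1 of 2) and the remaining genes (COL26A1, 1 of 2). COL8A1 and COL6A5 had no count in any library, which allows up to 0.0540 CPM in CAD-KO2+IR against 0.0670 CPM in sgVec+IR (3 counts of each group's total, counting error only). A further 12 genes had at most 5 counts in every library, namely COL1A2, COL2A1, COL8A2, COL9A1, COL10A1, COL11A1, COL19A1, COL20A1, COL21A1, COL22A1, COL23A1 and COL28A1. The remaining 7 (COL3A1, COL4A2, COL6A6, COL14A1, COL15A1, COL24A1 and COL25A1) reached 6 to 37 counts in their highest library.

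Expression was uneven within chain families that assemble together. Per length, COL6A1 and COL6A2, which encode 2 of the type VI chains, had the highest means over all 6 libraries, 20.4 and 18.5 CPM per kb of exon, and the ratio of COL6A1 to COL6A2 stayed between 1.04 and 1.39 in all 6 libraries. COL6A3, the large chain of the classical type VI trimer, had 5 to 25 counts per library and 0.0477 CPM per kb. COL1A1 was expressed at 3.46 CPM per kb, whereas COL1A2, its usual partner in type I collagen, had 1 count in each of 2 libraries and 0 in the rest. COL9A2 and COL9A3 were expressed and COL9A1 was not.

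Of the type IV genes, COL4A5 (8.16 CPM per kb), COL4A6 (2.17), COL4A4 (1.49) and COL4A3 (0.408) were expressed. COL4A1 and COL4A2 encode the chains of the most widespread type IV network. COL4A1 met the expression rule at a low level, with 8 to 34 counts per library and 0.0707 CPM per kb, while COL4A2 had at most 7 counts in a library and did not. COL4A5 exceeded COL4A6 by 3.23 to 4.58 times per length in every library, and COL4A4 exceeded COL4A3 by 1.95 to 6.49 times.

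**Figure D1:**
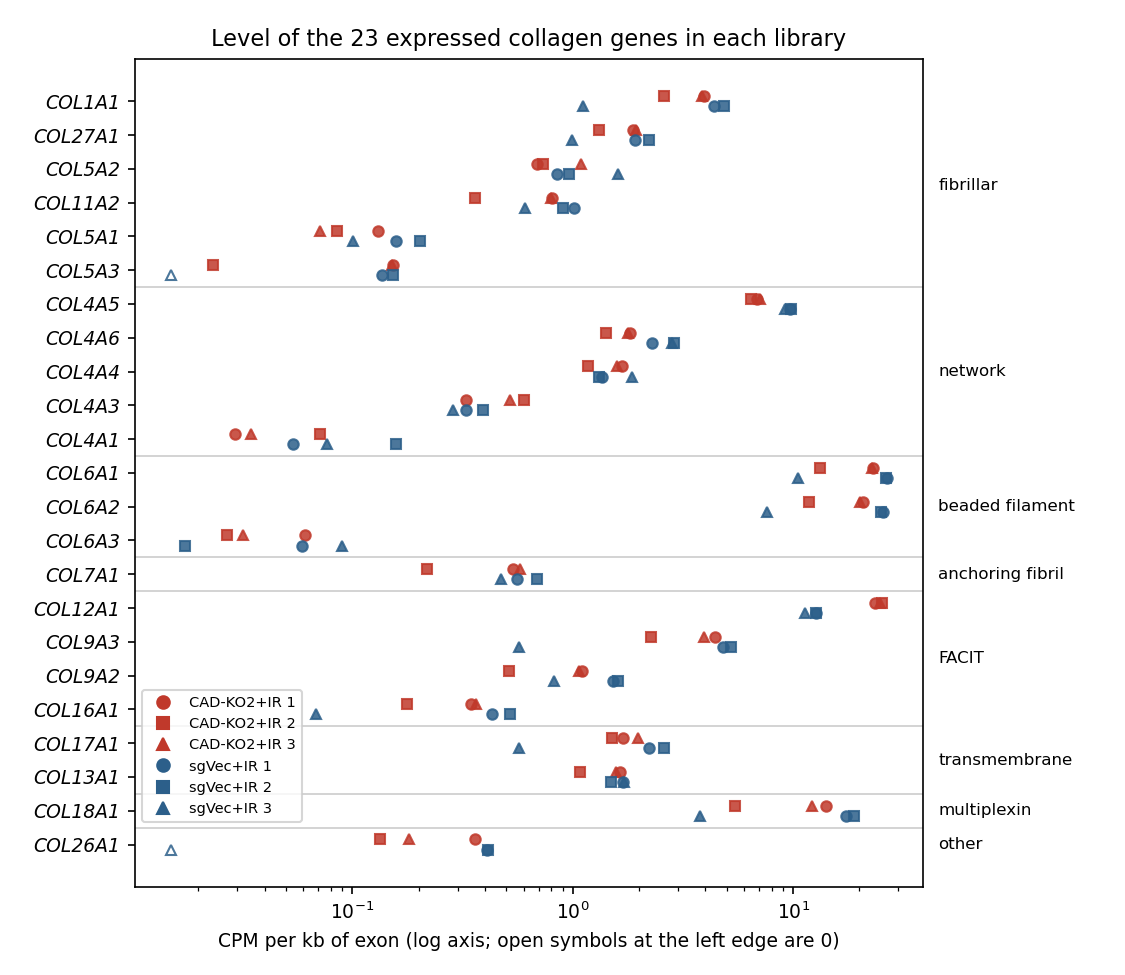
Level of each of the 23 expressed collagen genes in each library, in CPM per kb of exon on a log axis, grouped by structural class (red, CAD-KO2+IR; blue, sgVec+IR; symbols, replicates 1 to 3; open symbols at the left edge, 0). COL6A1, COL6A2, COL12A1 and COL18A1 average over 10 CPM per kb, and in 10 genes sgVec+IR library 3 (blue triangle) lies below 50% of the mean of the other 2 control libraries.

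Averaged over the 6 libraries, 4 genes lay above 10 CPM per kb, 9 between 1 and 10 and 10 below 1. Over all 6 libraries COL12A1 averaged 18.4 CPM per kb, COL18A1 11.9, COL4A5 8.16 and COL9A3 3.54. The order of the group means was not the same in both groups, and the differences between genes were not tested. In CAD-KO2+IR the mean of COL12A1 was the highest, at 24.5 CPM per kb against 19.7 for COL6A1, 17.6 for COL6A2 and 10.6 for COL18A1. In sgVec+IR it was the fourth, at 12.2 CPM per kb after COL6A1 at 21.2, COL6A2 at 19.4 and COL18A1 at 13.3. The SD in CAD-KO2+IR was 0.997 CPM per kb for COL12A1, 5.58 for COL6A1, 4.96 for COL6A2 and 4.53 for COL18A1. The CAD-KO2+IR means of COL6A1, COL6A2 and COL18A1 include library 2, where these genes were far lower than in libraries 1 and 3. The order was not computed with other measures of gene length. Counted in CPM rather than per length, COL12A1 made up 28.5% of the collagen signal, and together with COL6A1, COL18A1, COL6A2 and COL4A5 it made up 79.1%.

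COL12A1, which encodes the chain of collagen XII, lies on the reverse strand of chromosome 6 (GRCh38, 75084326 to 75206051). It had 293, 317 and 308 CPM in the CAD-KO2+IR libraries and 158, 159 and 141 CPM in the sgVec+IR libraries. Every knockout library was above every control library. In bulk RNA, fewer cells that express a gene and less RNA per cell cannot be told apart, here as for all genes that follow. The means were 306 ± 12.4 and 153 ± 9.94 CPM (SD, n = 3 each), a 2.01-fold difference with a log2 fold change of 1.0 (SE 0.14). In edgeR's quasi-likelihood test this did not pass after adjustment over the 12925 genes tested (unadjusted p = 0.000161, adjusted p = 0.225). DESeq2 gave a log2 fold change of 1.01 with adjusted p = 2.92e-08, and without sgVec+IR library 3 edgeR gave 0.95 with adjusted p = 0.0365. Over 16 alternative analyses the log2 fold change lay between 0.93 and 1.05, the adjusted p ran from 1.14e-17 to 1.0, and 5 of them called the gene. COL12A1 was 32.3, 45.6 and 34.1% of all collagen counts in the knockout libraries and 17.6, 17.1 and 28.1% in the controls, the highest share of each group being in the library that stood apart.

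COL4A5 encodes a basement-membrane chain mutated in Alport syndrome. Its level was 81.1, 76.5 and 84.3 CPM in CAD-KO2+IR against 114, 116 and 109 CPM in sgVec+IR, with no overlap. The log2 fold change was -0.49 (SE 0.14), with unadjusted p = 0.0119 and adjusted p = 1.0 in edgeR. COL4A6, its neighbour, had 16.9, 13.1 and 16.5 CPM in CAD-KO2+IR against 21.3, 26.7 and 26.3 CPM in sgVec+IR, again without overlap. Its log2 fold change was -0.68 (SE 0.20), with unadjusted p = 0.0132 and adjusted p = 1.0. Both genes had the lower knockout level in all 16 alternatives, with log2 fold changes of -0.51 to -0.45 for COL4A5 and -0.77 to -0.51 for COL4A6. The adjusted p fell below 0.05 in 3 of these for COL4A5 and in 2 for COL4A6, never with a 1.5-fold change. The head-to-head pair on chromosome 2 differed from this one in its values, with log2 fold changes of 0.52 (SE 0.34) for COL4A3 and -0.03 (SE 0.24) for COL4A4. In the pair on chromosome 13, COL4A1 also lay below 0, at -1.05 (SE 0.63), and COL4A2 was too low to be tested. Differences between the pairs were not tested.

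**Figure D2:**
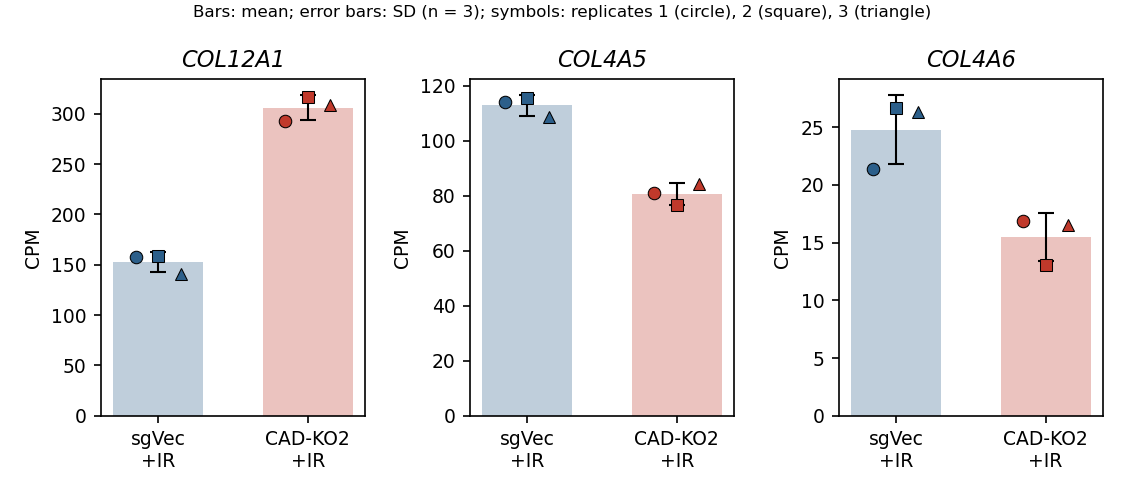
CPM of COL12A1, COL4A5 and COL4A6 by group (bars, mean; error bars, SD of 3 libraries; symbols, replicates 1 to 3; axes start at 0). COL12A1 averages 306 against 153 CPM, and the knockout libraries of COL4A5 and COL4A6 all sit below their controls.

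Across the family, 0 of 23 genes were called by edgeR (adjusted p under 0.05 with at least a 1.5-fold change), where 0.0309% of all 12925 genes were called. At an unadjusted p under 0.05, 1 collagen gene was higher in CAD-KO2+IR (1.08% of all genes) and 2 were lower (1.76%). Groups did not overlap in 1 gene that was higher (5.23% of all genes) and in 2 that were lower (5.01%). DESeq2 called 1 of the 42 collagen genes it tested, COL12A1, against 0.245% of 16728 genes. A limma voom fit that weighted the samples called COL12A1 and COL5A1 among 23, against 5.15% of all genes. Fold changes were below 0 for 18 of the 23 and above 0 for 5, with a median log2 fold change of -0.22 against -0.01 for all genes tested. Leaving out single libraries moved that median from -0.49 (without sgVec+IR library 3) to 0.00 (without sgVec+IR library 2). The number of genes below 0 was then 11 of 23 without sgVec+IR library 2, 12 without CAD-KO2+IR library 2, 13 without sgVec+IR library 1 and 19 to 21 without each of the others. For 15 of the 20 genes other than COL12A1, COL4A5 and COL4A6 the fold change was smaller than its own standard error.

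**Figure D3:**
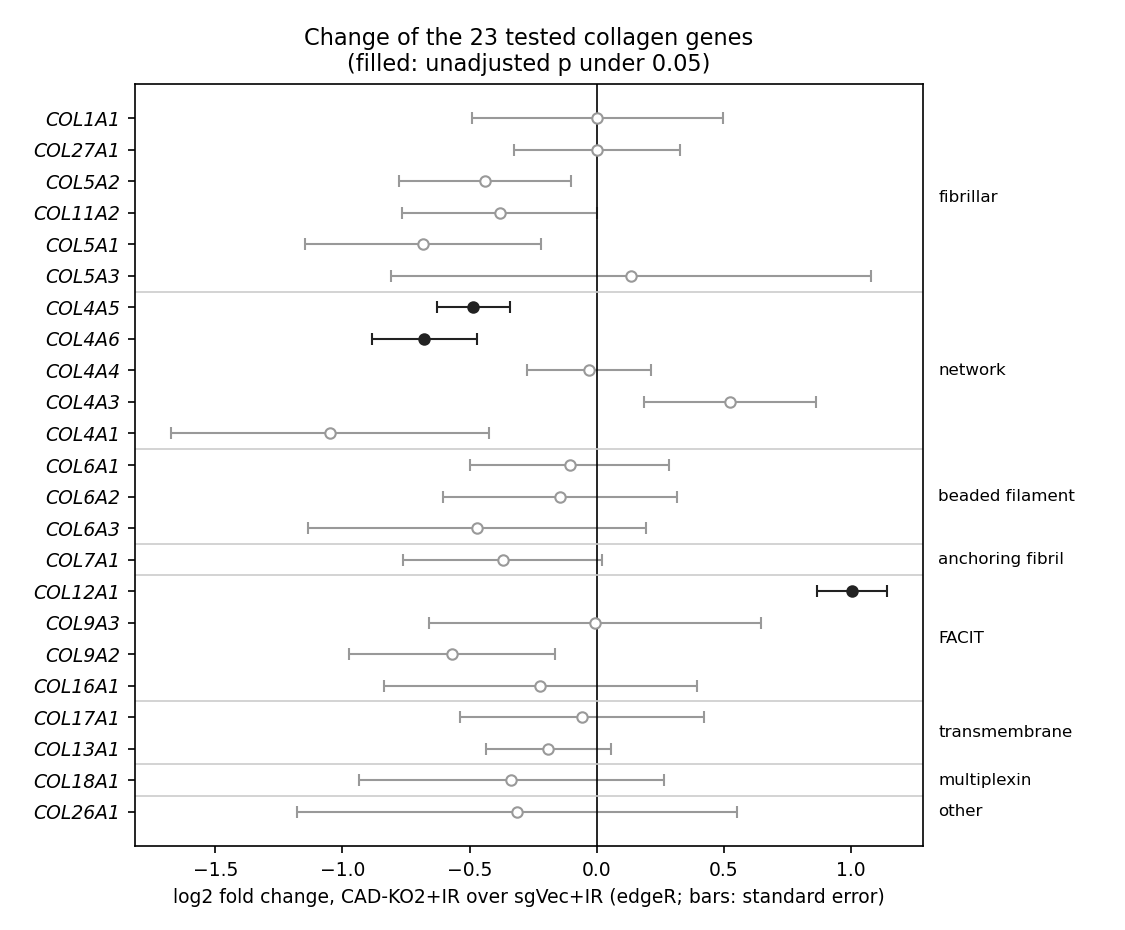
Log2 fold change of the 23 tested collagen genes in edgeR (points; bars, standard error; filled points, unadjusted p under 0.05), CAD-KO2+IR over sgVec+IR, by structural class. COL12A1 lies at 1.0, COL4A5 at -0.49 and COL4A6 at -0.68, and the bars of most other genes cross 0.

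Among the beaded-filament genes, COL6A1 had 123, 70.8 and 121 CPM in CAD-KO2+IR against 142, 141 and 56.2 CPM in sgVec+IR (log2 fold change -0.11, SE 0.39). COL6A2 followed the same pattern with 112, 63.9 and 108 CPM against 138, 135 and 40.9 CPM (log2 fold change -0.14, SE 0.46). In each group 1 library was far below the other two, and the groups overlapped. COL6A6 had 0 counts in the 3 knockout libraries and 3, 3 and 37 counts in the controls, so its groups did not overlap and 1 control library held most of its counts. It was too low to be tested in edgeR.

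Among the fibrillar genes, COL1A1, the main chain of type I collagen, had 38.8, 25.5 and 38.04 CPM in CAD-KO2+IR against 42.9, 47.8 and 10.9 CPM in sgVec+IR, with a log2 fold change of 0.00 (SE 0.50). COL3A1, a fibrillar collagen of elastic tissues, had 0 or 1 count in 5 libraries and 15 in sgVec+IR library 3. The other 5 expressed fibrillar genes, COL27A1, COL5A2, COL11A2, COL5A1 and COL5A3, had log2 fold changes from -0.68 (COL5A1) to 0.14 (COL5A3).

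Several low type IV, V and VI genes had wide errors. COL4A1 lay at a log2 fold change of -1.05 (SE 0.63) from at most 34 counts, and it was called when both libraries that stood apart were left out (edgeR adjusted p = 0.0293). That setting called 3.37% of all genes, and COL4A1 then had 8 and 9 counts against 13 and 34. Without sgVec+IR library 2, which held the 34 counts, its log2 fold change was -0.49. COL6A3 lay at -0.47 (SE 0.66). COL5A3 and COL26A1 had 0 counts in sgVec+IR library 3 and log2 fold changes of 0.14 (SE 0.94) and -0.31 (SE 0.87).

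The genes whose collagens fasten epithelium to its basement membrane did not pass the test. COL17A1, a transmembrane collagen of hemidesmosomes, had a log2 fold change of -0.06 (SE 0.48), and COL7A1, which forms anchoring fibrils, had -0.37 (SE 0.39). COL13A1, a further transmembrane collagen of cell contacts, lay at -0.19 (SE 0.24). Among the other FACIT genes COL9A2 lay at -0.57 (SE 0.40) and COL16A1 at -0.22 (SE 0.61), while COL12A1 was the 1 FACIT gene above 0.

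COL18A1, the source of the fragment endostatin, had 120, 46.4 and 104 CPM in CAD-KO2+IR against 148, 160 and 32.1 CPM in sgVec+IR (log2 fold change -0.34, SE 0.60). Its exons overlap 1401 bases of SLC19A1 on the opposite strand, and the strand setting of the counting is not given in the sources used here, so reads of that overlap cannot be assigned. COL9A3, a FACIT chain of cartilage, had 21.4, 11.0 and 19.02 CPM in CAD-KO2+IR against 23.2, 25.3 and 2.75 CPM in sgVec+IR (log2 fold change -0.01, SE 0.65). It shares 45 exon bases with TCFL5 on the opposite strand. Both genes were lowest in the same control library and the same knockout library. Exons of the expressed genes COL5A3 (270 bases), COL4A3 (120) and COL16A1 (117) also overlap genes on the opposite strand. Reads of those stretches cannot be assigned either.

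The low libraries moved with base composition. The GC content of the longest coding transcript had a median of 61.1% in the 23 collagen genes, from 46.3% in COL12A1 to 67.4% in COL9A3, against 49.9% in all genes tested. In sgVec+IR library 3 the collagen genes lay a median 0.62 log2 units below libraries 1 and 2, against 0.11 units for all genes, and 17 of 23 were lowest there among the controls (51.4% of all genes). In CAD-KO2+IR library 2 they lay 0.52 units below libraries 1 and 3, against a median of 0.00 for all genes. Across genes, GC content and the deviation of sgVec+IR library 3 had a Spearman correlation of -0.75 in the 23 collagen genes and -0.73 in 12861 genes. For CAD-KO2+IR library 2 it was -0.83 and -0.82. These correlations describe genes that share libraries and are not tests. COL12A1, with the lowest GC content of the 23, kept 141 CPM in sgVec+IR library 3. With a correction for GC content, chosen after seeing the data, its log2 fold change was 0.98 (edgeR adjusted p = 0.0220). That of COL4A5 was then -0.51 (adjusted p = 0.0496), less than a 1.5-fold change, and that of COL4A6 was -0.74 (adjusted p = 0.335). With the replicate block added to this correction, the edgeR adjusted p was 0.143 for COL12A1 and 0.328 for COL4A5.

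The genes that act on collagen were read from 6 lists, and edgeR called 0 genes in each, where 0.0309% of all genes tested were called. At an unadjusted p under 0.05 in edgeR, 1.08% of all genes were higher in CAD-KO2+IR and 1.76% were lower. Among 18 tested enzymes of chain modification and folding, 1 passed an unadjusted p under 0.05. This was P3H2, a prolyl 3-hydroxylase of type IV collagen, with 1.19, 1.32 and 1.42 CPM in CAD-KO2+IR against 0.428, 0.342 and 0.212 CPM in sgVec+IR (log2 fold change 1.96, SE 0.50, unadjusted p = 0.00399, adjusted p = 1.0). The groups did not overlap, at low levels of 22, 25 and 25 counts against 7, 5 and 3. P3H2 passed the count filter through the CAD-KO2+IR libraries, where it was high, so its difference is not independent of that filter. None of 11 secretion genes, 14 processing and cross-linking genes, 10 receptors, and 9 proteases and inhibitors passed that unadjusted threshold. Of the processing and cross-linking genes, 12 had fold changes below 0 and 2 above, with a median log2 fold change of -0.22. Among all 12925 genes tested, 6711 were below 0, with a median of -0.01. The summed level of that list ran from 112 CPM in library 3 to 336 CPM within sgVec+IR, and from 174 to 285 CPM within CAD-KO2+IR. How these signs move without single libraries was not tested.

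Of 7 tested matrix partners, 1 passed the unadjusted threshold, on the higher side, as did 1.08% of all genes. THBS1 encodes thrombospondin 1, a matrix glycoprotein that binds collagen and cells. It had 28.0, 25.4 and 24.9 CPM in CAD-KO2+IR against 12.2, 12.6 and 14.7 CPM in sgVec+IR, with no overlap. The log2 fold change was 0.99 (SE 0.19), with unadjusted p = 0.00113 and adjusted p = 0.550 in edgeR and adjusted p = 0.00199 in DESeq2.

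Markers of other cell types were set beside these values. Of the 10 fibroblast markers, DCN, LUM and POSTN were at 0 in every library, and the summed level was 26.1 to 39.9 CPM in CAD-KO2+IR against 13.3 to 48.9 CPM in sgVec+IR, nearly all of it COL1A1. The 5 smooth muscle and pericyte markers summed to 21.6 to 22.7 CPM in CAD-KO2+IR against 28.8 to 34.1 CPM in sgVec+IR, but their fold changes were above 0 for 2 and below 0 for 3, and 0 of 5 had an unadjusted p under 0.05. In sgVec+IR library 3, RGS5 alone made up 25.5 of the 34.1 CPM. The 4 endothelial markers summed to 1.0 to 2.22 CPM and 4.16 to 6.07 CPM, of which VWF was the 1 tested (log2 fold change -1.77, SE 0.47, unadjusted p = 0.00731, adjusted p = 1.0). Of the 4 leukocyte markers CD3E was at 0 and the sum was at most 0.399 CPM. CDH1, the epithelial cadherin, averaged 66.7 ± 2.95 CPM in CAD-KO2+IR against 97.1 ± 2.90 CPM in sgVec+IR (SD, n = 3 each, log2 fold change -0.54, SE 0.15, unadjusted p = 0.00752, adjusted p = 1.0), without overlap. Among the 7 colorectal epithelial markers tested, 5 fold changes were below 0 and 2 above. KRT18 went the other way without overlap, at 494, 446 and 487 CPM in CAD-KO2+IR. Its sgVec+IR libraries had 440, 435 and 274 CPM (log2 fold change 0.31, SE 0.21). The summed endothelial and smooth muscle levels and CDH1 were, like COL4A5 and COL4A6, lower in every knockout library than in every control library. Taken singly, each of the 5 smooth muscle markers overlapped between the groups. RGS5 had 4.50, 8.33 and 5.81 CPM in CAD-KO2+IR against 7.22, 8.56 and 25.5 CPM in sgVec+IR. MYH11 and TAGLN, 2 of the smooth muscle markers, had log2 fold changes of 0.07 and 0.08. The part of these markers in the collagen values was not tested.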

How the data were processed

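RNA was measured in 6 libraries of HCT116 cells, 3 per group, grouped by the labels. The authors extracted total RNA with TRIzol, trimmed reads with fastp, counted them per gene with featureCounts 1.5.0-p3 and deposited those raw counts. The aligner, the annotation and the strand setting are not given in the sources used here. The submitters' notes list a mouse build and genomic DNA, while the gene identifiers are human.

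The collagen genes and the lists were chosen with earlier results of these data known. Counts were filtered with filterByExpr (minimum count 10, minimum total 15), scaled by TMM and compared with edgeR's quasi-likelihood test (legacy FALSE, not the default of this version), with Benjamini-Hochberg adjustment over 12925 genes. Calls needed an adjusted p under 0.05 with at least a 1.5-fold change. R 4.3.3, edgeR 4.0.16, DESeq2 1.42.0 and limma 3.58.1 were used, and the scripts were tested on simulated data. The simulation gave every gene the same dispersion and held no library that stood apart, so it does not cover such libraries. The SE is the size of the log2 fold change divided by the square root of F. Per-length levels divide CPM by the exon length in GENCODE 29 (GRCh38), to which 44 of 44 collagen genes matched. Promoters came from RefSeq (GRCh38.p14), with 32 of 44 matched.

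Values in every library were given for COL12A1, for collagen genes with an unadjusted p under 0.05 or groups without overlap, and for the 8 highest per length. COL4A3, COL4A4, COL6A6 and COL3A1 were also named, the last 2 chosen after their values were seen. For the lists, genes with an unadjusted p under 0.05 were named. Alternatives changed the tool, scaling, filter, fit, thresholds and replicate block, and left out each library. The GC correction (with or without the block) and leaving out both libraries that stood apart were added after seeing the data.

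Totals of 14032994 to 19574144 counts limit the precision of low genes. Depth was not the only limit, since COL18A1 with 10129 counts had an SE of 0.60 and COL4A5 with 9528 counts had 0.14. Without molecular identifiers reads do not count independent molecules, and limits for genes at 0 cover counting error only.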

Additional observations from a re-analysis of the deposited data

How the results depend on the processing

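The number of collagen genes called, 0 in edgeR, was 1 in DESeq2, 2 in voom with sample weights, 1 with the GC correction, 2 without both libraries that stood apart and 0 to 1 when single libraries were left out. It stayed at 0 under the other settings. The number at an unadjusted p under 0.05, 3 in edgeR, was 1 with the replicate block, 14 in voom and 12 without both libraries. It was 1 to 6 without single libraries (1 without sgVec+IR library 2, 6 without sgVec+IR library 3). In voom 12 were lower in CAD-KO2+IR and 2 higher, and without both libraries 10 were lower and 2 higher. The share of all genes at this threshold was counted only in the main edgeR fit (1.08% higher, 1.76% lower). These counts therefore have no background to be read against. The log2 fold change of COL12A1, 1.0, passed adjustment in DESeq2 (1.01), voom (0.95), with the GC correction (0.98), without both libraries (0.93) and without sgVec+IR library 3 (0.95), and ranged from 0.95 to 1.05 without single libraries. With the replicate block its adjusted p was 1.0. The deviations of same-numbered libraries had correlations of 0.57, -0.64 and -0.46. The libraries that stood apart carry different replicate numbers, and their deviations correlated at 0.65. These values therefore cannot decide whether replicate numbers pair the libraries. Signs turned for genes near 0 and for some further from it. COL6A3 (-0.47) was 0.088 in voom, 0.24 without both libraries and 0.018 without sgVec+IR library 3. COL5A2 (-0.44) was 0.12 in voom, and COL26A1 (-0.31) was 0.11 without sgVec+IR library 1. COL9A3 (-0.01) was 0.011 in DESeq2, 0.0033 without a filter, 0.22 with the replicate block, 0.00071 in the legacy fit, 0.17 with the GC correction, 0.30 with that and the block, and -0.50 to 0.38 without single libraries. COL17A1 (-0.06) was 0.081 with the block, 0.011 with the GC correction, 0.11 with both, and -0.47 to 0.30 without single libraries. COL1A1 (0.00) was -0.24 in voom, -0.23 without both libraries and -0.41 to 0.33 without single ones. COL4A4 (-0.03) was 0.25 in voom, 0.29 without both libraries and -0.12 to 0.14 without single ones. Without single libraries COL6A1 ranged from -0.43 to 0.12, COL6A2 from -0.52 to 0.11 and COL18A1 from -0.77 to 0.0026. The cause of these moves was not tested. All genes tested numbered 4 called in edgeR, 41 in DESeq2, 42 with the GC correction, 666 in voom and 440 without both libraries. With 14032994 counts in the shallowest library, genes near the minimum of 10 counts are imprecise.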
